A study of Mus musculus with 125 samples.

Results

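Genomic imprints are parental DNA methylation marks that must survive while the rest of the genome is demethylated after fertilization. Described here are 9 genes whose proteins protect, copy, set or remove such marks: Zfp57, Zfp445, Trim28, Dppa3, Dnmt1, Uhrf1, Dnmt3a, Dnmt3l and Tet3. They were chosen by name and function, and each was found as 1 row among the 43421 genes of the count table. Their RNA was counted in single 2-cell mouse embryos, with at least 1 count of every member in each embryo kept.

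The study asked how embryos with 1 pronucleus (1PN) differ from those with 2 separate parental pronuclei (2PN). Zygotes were picked at 10 h and stripped of the second polar body, and each embryo was lysed on its own at 34 h, with the same protocol text given for all groups. In C57BL/6 x JF1/Ms, called the B cross here, there were 43 2PN embryos, 11 1PN embryos and 8 1PN embryos that the submitters classed in silico as parthenotes. In JF1/Ms x C57BL/6, the J cross, the numbers were 21, 3 and 4, and a further group held 31 activated parthenotes of C57BL/6 only. The 1PN embryos classed as parthenotes are called uniparental 1PN embryos, and 1PN without further words means the others. Both C57BL/6 and JF1/Ms are inbred strains, and the labels do not say which of them was the mother in a cross. They also name no dam, litter or day for an embryo, so the spread between embryos may include differences between collections. A further 4 libraries, 1 labelled dead and 3 labelled low quality, entered no comparison.

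ZFP57 and ZFP445 are zinc finger proteins with a KRAB domain that bind methylated imprint control regions. Through TRIM28, a corepressor also called KAP1, they bring in histone and DNA methyltransferases. DPPA3 (STELLA) is a protein stored in the egg that shields the maternal genome from TET3, the dioxygenase that oxidizes 5-methylcytosine in the zygote. DNMT1 copies methylation onto new strands with the help of UHRF1, while DNMT3A with its cofactor DNMT3L sets the maternal imprints in the growing oocyte. At the 2-cell stage, transcripts left from the oocyte are being degraded as the embryo starts its own transcription, so an embryo's RNA holds both.

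Promoters of the 4 members that differed between uniparental 1PN and 2PN embryos over both crosses are shown to place them in the genome and to show whether they hold the hexamer that ZFP57 reads. Each is the 300 bases from 250 before to 50 after an annotated start, from RefSeq on GRCm38.p6, written 5′ to 3′ on the gene's strand. For Tet3 the only start with an entry lies inside the gene (83362373 to 83457208), so its upstream end is not covered. Capitals mark TGCCGC, the hexamer that ZFP57 binds in its methylated form, searched on both strands (GCGGCA on the other).
Zfp57, chr17:37000913-37001212, plus strand, the most upstream of 3 starts: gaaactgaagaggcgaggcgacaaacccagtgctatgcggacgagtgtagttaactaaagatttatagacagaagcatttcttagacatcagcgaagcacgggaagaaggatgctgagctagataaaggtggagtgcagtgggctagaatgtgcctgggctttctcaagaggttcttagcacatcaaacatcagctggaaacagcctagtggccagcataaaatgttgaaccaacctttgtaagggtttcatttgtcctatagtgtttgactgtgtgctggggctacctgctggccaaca
Trim28, chr7:13023902-13024201, plus strand: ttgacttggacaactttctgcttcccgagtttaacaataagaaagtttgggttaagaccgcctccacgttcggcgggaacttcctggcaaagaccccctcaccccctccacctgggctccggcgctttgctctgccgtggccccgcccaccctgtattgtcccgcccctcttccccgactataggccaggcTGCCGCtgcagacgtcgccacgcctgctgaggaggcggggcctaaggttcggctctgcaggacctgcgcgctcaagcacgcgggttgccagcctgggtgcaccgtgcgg
Tet3, chr6:83441629-83441928, minus strand: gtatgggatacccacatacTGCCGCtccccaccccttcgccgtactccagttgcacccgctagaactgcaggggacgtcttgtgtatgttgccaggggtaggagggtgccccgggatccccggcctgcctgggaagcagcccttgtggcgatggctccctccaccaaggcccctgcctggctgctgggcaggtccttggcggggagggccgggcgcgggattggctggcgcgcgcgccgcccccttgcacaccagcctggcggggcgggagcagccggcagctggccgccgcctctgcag
Uhrf1, chr17:56303087-56303386, plus strand, the most upstream of 2 starts: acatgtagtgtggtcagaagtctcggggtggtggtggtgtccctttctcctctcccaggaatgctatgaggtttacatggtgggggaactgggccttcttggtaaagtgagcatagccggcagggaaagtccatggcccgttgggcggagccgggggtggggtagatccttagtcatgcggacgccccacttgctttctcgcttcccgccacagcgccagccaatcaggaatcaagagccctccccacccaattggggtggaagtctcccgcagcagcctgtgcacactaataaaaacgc
The hexamer occurred 1 time each in the Trim28 and Tet3 windows and in neither of the other windows printed. Over the 17 windows of the 8 members with an entry, 4 held it, the others being 2 overlapping windows of Dnmt3a, against 11.6% of 32851 windows of all genes. The Trim28 and Tet3 windows held 23 and 22 CpG dinucleotides, the Uhrf1 window 12 and the Zfp57 window 6, against a median of 7 over all windows. A match is a description of the letters only, since neither methylation nor binding was measured here.

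Levels are given in CPM (counts per 1000000 gene counts), the share of an embryo's gene counts that came from a gene. More transcript of a gene and less RNA of other genes in an embryo therefore cannot be told apart. Total gene counts of the kept libraries spanned 533116 to 4887190 (median 3392243). The median count of a member per embryo ran from 57 for Uhrf1 to 10640 for Dppa3, so counting error weighs most on Uhrf1, and all 9 passed the filter on low counts. As levels of different genes were not scaled to transcript length, they are compared across embryos only. Markers of the oocyte and 2-cell embryo were counted in every group, with a sum over 7 matched genes of 369 to 7691 CPM per embryo. Markers of cumulus and granulosa cells, 11 genes, summed to at most 94.1 CPM in any embryo.

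A few libraries stood apart and bear on what follows. Among the 4 uniparental 1PN embryos of the J cross, the libraries of embryos 1 and 2 held 46464 and 42500 CPM of 23 oocyte-derived transcripts, against 7937 and 8559 CPM in embryos 3 and 7 and 2216 to 14705 CPM in the 21 2PN embryos of that cross. Their 25 transcripts of the embryo's own 2-cell programme summed to 24.1 and 479 CPM, against 8771 and 7669 CPM in embryos 3 and 7. In the B cross, uniparental embryo 10 held 40039 CPM of the oocyte-derived list and 2522 CPM of the embryonic list. Where leaving these libraries out removed a call of a member, the value without them is given beside it, while some gained calls are given as counts only.

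Uniparental 1PN embryos held more RNA of Zfp57, Tet3 and Uhrf1 and less of Trim28 than 2PN embryos of the same crosses. Fitted over both crosses, Zfp57 was 3.02-fold higher, Tet3 1.97-fold higher, Uhrf1 1.89-fold higher and Trim28 2.25-fold lower. Thus 3 members were higher and 1 lower by edgeR's quasi-likelihood test at an adjusted p under 0.05, while of all 22785 genes tested 26.6% were called higher and 18.3% called lower. The median log2 fold change was -0.05 over the 9 members and 0.22 over all genes tested. Summed over 11 genes, cumulus and granulosa markers had a median of 29.2 CPM (4.72 to 72.0) in B cross uniparental embryos against 7.86 CPM in its 2PN embryos, and of 1.55 CPM (0.265 to 3.99) against 5.81 CPM in the J cross. Their part in the B cross differences was not tested. The share of members called, 3 and 1 of 9, thus lay near that of all genes.

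**Figure D1:**
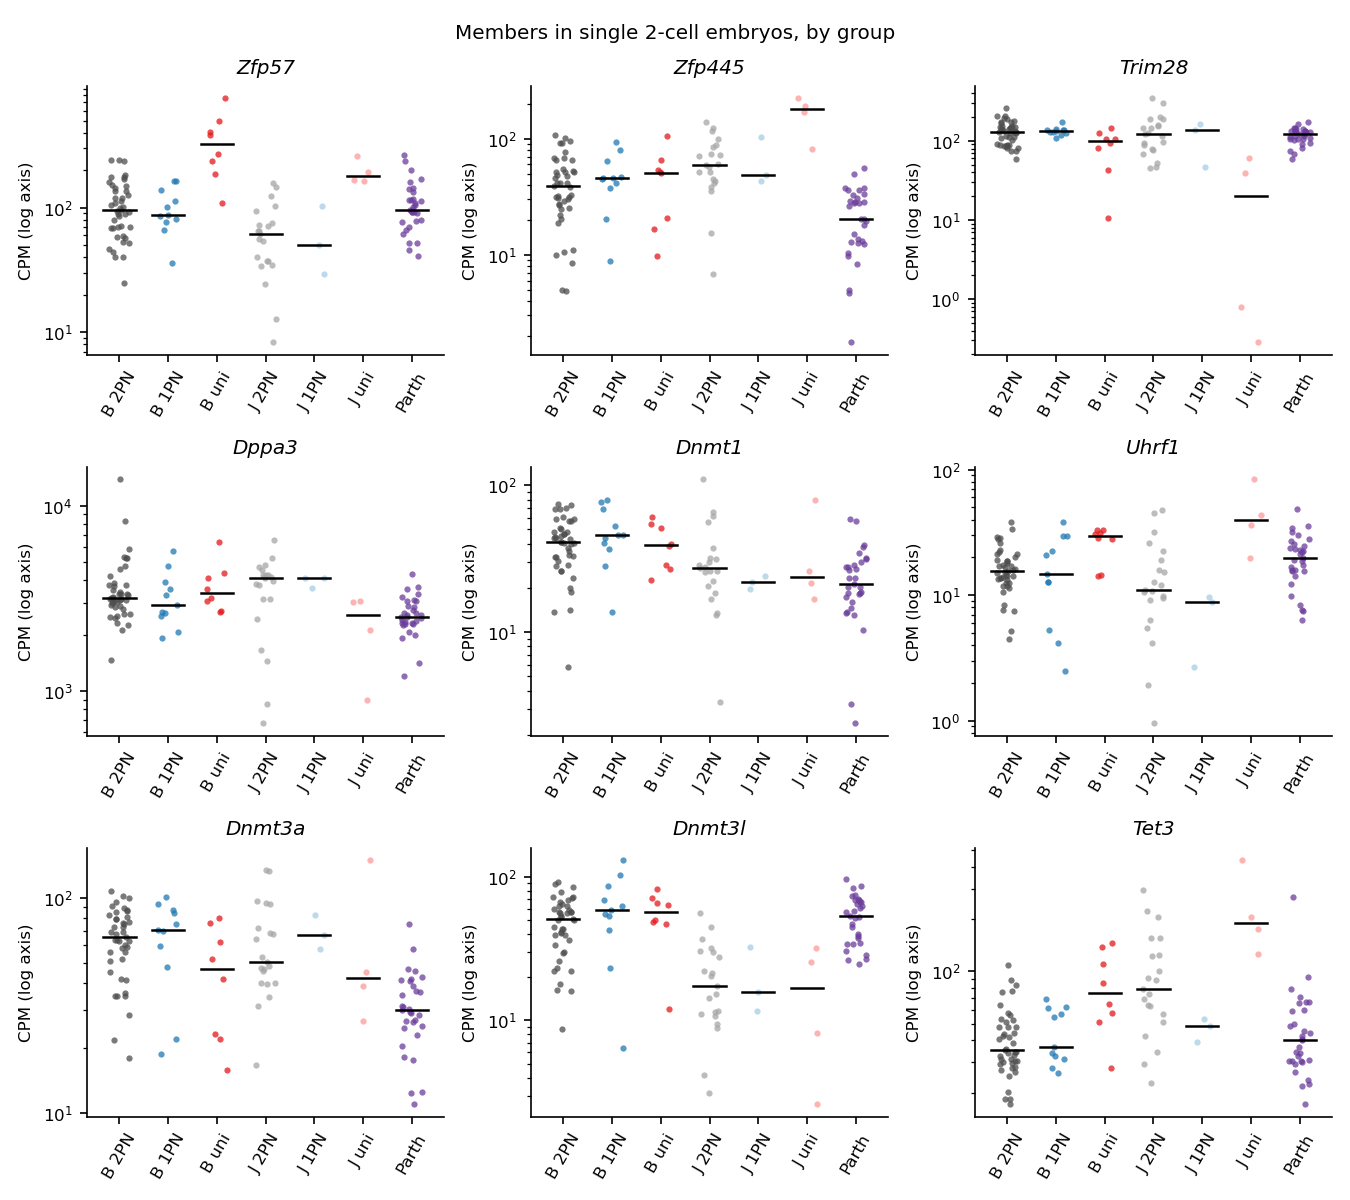
CPM of each member (log axis) in each embryo, by group; a point is an embryo and a black bar the group's median. B and J are the crosses C57BL/6 x JF1/Ms and JF1/Ms x C57BL/6, uni marks uniparental 1PN embryos and Parth the C57BL/6 parthenotes. Zfp57 has a median of 327 CPM in uniparental embryos of the B cross against 96.5 in its 2PN embryos, and Trim28 falls to 0.796 and 0.284 CPM in 2 J cross uniparental embryos.

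Zfp57, the KRAB zinc finger protein of imprint maintenance, lies on chromosome 17 (37001163 to 37010729, GRCm38.p6). Its level in B cross embryos ran from 24.8 to 243 CPM with a median of 96.5 in 2PN embryos, and from 36.1 to 165 with a median of 87.7 in 1PN embryos. In the 8 uniparental embryos it ran from 108 to 755 with a median of 327. All 8 were above the 2PN median and 5 were above every 2PN embryo. Among J cross embryos, the 2PN group ran from 8.31 to 159 CPM with a median of 61.4, and the 1PN embryos held 104, 29.1 and 50.5 CPM. The 4 uniparental embryos held 259, 165, 193 and 166 CPM, so that they did not overlap with the 2PN embryos. The log2 fold change over both crosses was 1.60 ± 0.21 (SE, adjusted p = 3.29e-09). Within the B cross it was 1.57 ± 0.24 (adjusted p = 1.98e-07), and within the J cross 1.44 ± 0.36 (adjusted p = 0.000739). Without J cross uniparental embryos 1 and 2 it was 1.37 in that cross, and the call was lost (adjusted p = 0.0839). The difference of this effect between the crosses did not pass (adjusted p = 0.901).

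Zfp445, the second KRAB zinc finger protein of imprint maintenance, is on chromosome 9 (122848910 to 122886851). B cross levels were 4.84 to 107 CPM in 2PN embryos (median 39) and 9.76 to 105 in uniparental embryos (median 51.0), with full overlap. The uniparental embryos of the J cross held 190, 168, 81.6 and 223 CPM, of which 3 were above all 21 2PN embryos (6.88 to 138, median 59.0). The log2 fold change over both crosses, 0.51 ± 0.27, did not pass the test (adjusted p = 0.108). It was called with DESeq2 (0.70, adjusted p = 0.0378), with its size factors (0.70, adjusted p = 0.0232) and with the embryo number as a block (0.95, adjusted p = 0.0185), but in no other alternative. Within the J cross it was 1.23 ± 0.42 (adjusted p = 0.0155), a call lost without embryo 2 (1.19, adjusted p = 0.0541) and without embryos 1 and 2 (1.14, adjusted p = 0.276). The difference of this effect between the crosses was 1.31 ± 0.55 and did not pass (adjusted p = 0.0863).

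Trim28, the corepressor that both zinc finger proteins recruit, is on chromosome 7 (13024152 to 13031032). Its coefficient of variation was the smallest of the 9 members in 2 groups of the B cross, 32.2% in 2PN embryos (58.4 to 258 CPM, median 130) and 11.8% in the 11 1PN embryos (110 to 172 CPM, median 132). In the 8 uniparental embryos of the B cross it was 49.6%, above that of 4 other members, and the level ran from 10.6 to 147 CPM with a median of 99.0. Of these, 7 were below the 2PN median and 2 below every 2PN embryo, with embryo 10 the lowest. J cross 2PN embryos ran from 46.0 to 346 CPM (mean 135 ± 78.6, SD, n = 21) and the 1PN embryos held 136, 163 and 47.1 CPM. The uniparental embryos held 0.796, 0.284, 60.1 and 38.9 CPM, and embryos 1 and 2 rest on 3 counts and 1 count in libraries of 3768364 and 3521091 counts. All 4 were below the 2PN median, and 3 were below every 2PN embryo. The log2 fold change was -1.17 ± 0.26 over both crosses (adjusted p = 0.000178) and -0.83 ± 0.26 within the B cross (adjusted p = 0.0104). Within the J cross it was -2.83 ± 0.47 (adjusted p = 7.83e-07), and -1.50 without embryos 1 and 2 (adjusted p = 0.0505).

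Trim28 was the only member whose uniparental difference was called different between the crosses, by -2.0 ± 0.51 log2 units, lower in the J cross (adjusted p = 0.00313). Of all 24380 genes in that test, 11.8% were called lower in the J cross and 4.09% higher. That call was lost without embryo 1 (-1.47, adjusted p = 0.0578), without embryo 2 (-1.49, adjusted p = 0.050, just over the threshold before rounding) and without both (-0.75, adjusted p = 0.624). It rests on the 2 libraries that stood apart.

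Tet3, which oxidizes 5-methylcytosine, is on chromosome 6 (83362373 to 83457208). B cross levels ran from 17.1 to 109 CPM in 2PN embryos (median 35), from 25.8 to 69.2 in 1PN embryos (median 36.7) and from 27.7 to 146 in uniparental embryos (median 75.4). Of the 8 uniparental embryos, 7 were above the 2PN median and 3 above every 2PN embryo. J cross levels were 22.7 to 295 CPM in 2PN embryos (median 78.7), and the 1PN embryos held 48.7, 53.4 and 39.3 CPM. The uniparental embryos held 438, 206, 126 and 176 CPM, all above the 2PN median and 1 above every 2PN embryo. The log2 fold change was 0.98 ± 0.21 over both crosses (adjusted p = 7.09e-05) and 0.77 ± 0.25 within the B cross (adjusted p = 0.0130). Within the J cross it was 1.13 ± 0.34 (adjusted p = 0.00597), a call lost without embryo 1 (0.77, adjusted p = 0.166) and without embryos 1 and 2 (0.52, adjusted p = 0.707).

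Uhrf1, the partner that guides DNMT1 to hemimethylated DNA, is on chromosome 17 (56303337 to 56323486). B cross levels ran from 4.49 to 38.5 CPM in 2PN embryos (median 15.7) and from 14.3 to 33 in uniparental embryos (median 29.7), with 6 of 8 above the 2PN median and none above every 2PN embryo. For the J cross, the 2PN embryos ran from 0.953 to 47.8 CPM (median 11), the 1PN embryos held 2.69, 9.68 and 8.81 CPM, and the uniparental embryos held 83.9, 43.2, 19.6 and 35.9 CPM. All 4 uniparental embryos of that cross were above the 2PN median and above the 3 1PN embryos. The log2 fold change over both crosses was 0.91 ± 0.23 (adjusted p = 0.000797), but 0.50 without J cross uniparental embryos 1 and 2 (adjusted p = 0.106). Within the J cross it was 1.5 ± 0.35 (adjusted p = 0.000310), and 0.76 without those embryos (adjusted p = 0.580). Within the B cross it was 0.45 ± 0.26 and did not pass (adjusted p = 0.175), and the difference between the crosses, 1.06 ± 0.45, did not pass either (adjusted p = 0.0919).

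The maintenance methyltransferase Dnmt1 and the cofactor Dnmt3l were not called in this comparison. Dnmt1 on chromosome 9 had a log2 fold change of -0.05 ± 0.21 over both crosses (95% interval -0.46 to 0.36). B cross levels were 5.75 to 74.6 CPM in 2PN embryos (median 41.3) and 22.6 to 61.2 in uniparental embryos (median 39.1). In the J cross the uniparental embryos held 78.8, 16.8, 21.5 and 25.9 CPM, inside the 3.33 to 110 CPM of the 2PN embryos. Dnmt3l, the cofactor without catalytic activity, had a log2 fold change of -0.10 ± 0.24 (95% interval -0.56 to 0.37). The sign of both values turned with DESeq2's size factors, to 0.16 and 0.09.

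Dnmt3a, the enzyme that sets maternal imprints, had a log2 fold change of -0.41 ± 0.20 over both crosses, which did not pass (adjusted p = 0.0873). Within the B cross it fell by 0.71 ± 0.24 on the log2 scale (adjusted p = 0.0174). Its level there was 18 to 107 CPM in 2PN embryos (median 65.4) and 15.9 to 80.1 in uniparental embryos (median 46.8), with 6 of 8 below the 2PN median. The B cross call was lost with DESeq2 (-0.51, adjusted p = 0.0951), with its size factors (-0.51, adjusted p = 0.0841), without a filter on low counts (-0.67, adjusted p = 0.150) and without uniparental embryo 10 (-0.60, adjusted p = 0.0616), the last from a fit that also left out J cross embryos 1 and 2. The J cross uniparental embryos held 149, 45.4, 26.8 and 38.9 CPM, with embryo 1 above every 2PN embryo and the others within their range of 16.8 to 134. Without J cross embryo 1 the log2 fold change over both crosses was -0.66 and was called (adjusted p = 0.00629), and without embryos 1 and 2 it was -0.75 (adjusted p = 0.00437).

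Dppa3, the egg protein that guards maternal methylation, was counted most deeply of the members, in every group. Its B cross levels ran from 1477 to 13926 CPM in 2PN embryos (median 3178) and from 2683 to 6393 in uniparental embryos (median 3377). J cross levels were 670 to 6512 CPM in 2PN embryos (median 4086) and 3022, 3070, 2128 and 896 CPM in uniparental embryos, all 4 below the 2PN median. The log2 fold change was -0.30 ± 0.21 over both crosses (adjusted p = 0.256) and -0.81 ± 0.36 within the J cross (adjusted p = 0.0652), so neither passed.

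Counts of members within the crosses are read against all genes as well. In the B cross 2 members were higher (Zfp57, Tet3) and 2 lower (Trim28, Dnmt3a), where 18.5% of 24380 genes were higher and 13.2% lower. In the J cross 4 were higher (Zfp57, Zfp445, Uhrf1, Tet3) and 1 lower (Trim28), where 14.7% of genes were higher and 20.1% lower. The median log2 fold change of all genes tested was 0.19 in the B cross and -0.64 in the J cross. These medians moved to 0.41 and -0.27 with DESeq2's size factors, and the calls of all genes from 4500 higher and 3213 lower to 6117 and 2395 in the B cross and from 3582 and 4900 to 4610 and 3811 in the J cross. Without J cross uniparental embryos 1 and 2, no member was called in that cross, whose uniparental group then held 2 embryos. Against 1PN embryos over both crosses, uniparental embryos showed the same 4 members called: Zfp57 by 1.68 ± 0.30, Tet3 by 1.12 ± 0.28, Uhrf1 by 1.04 ± 0.31 and Trim28 by -1.11 ± 0.30 on the log2 scale (adjusted p from 1.51e-05 to 0.00616). Without J cross uniparental embryos 1 and 2 the call of Uhrf1 was lost there too (0.64, adjusted p = 0.108), as it was with B cross embryo 10 also left out (0.61, adjusted p = 0.158). Of all genes, 20.6% were higher and 15.5% lower in that comparison, which shares the uniparental embryos with the one against 2PN.

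Between 1PN and 2PN embryos no member was called by edgeR, and none had an unadjusted p under 0.05, while 0.101% of all genes were called higher and 0% lower. Fitted log2 fold changes over both crosses ran from -0.14 for Tet3 to 0.24 for Dnmt3l, with SEs of 0.18 to 0.26. The 95% intervals reached from -0.59 to 0.66, so differences within that range are not excluded by these 14 1PN embryos. DESeq2 and limma voom also called 0 members.

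**Figure D2:**
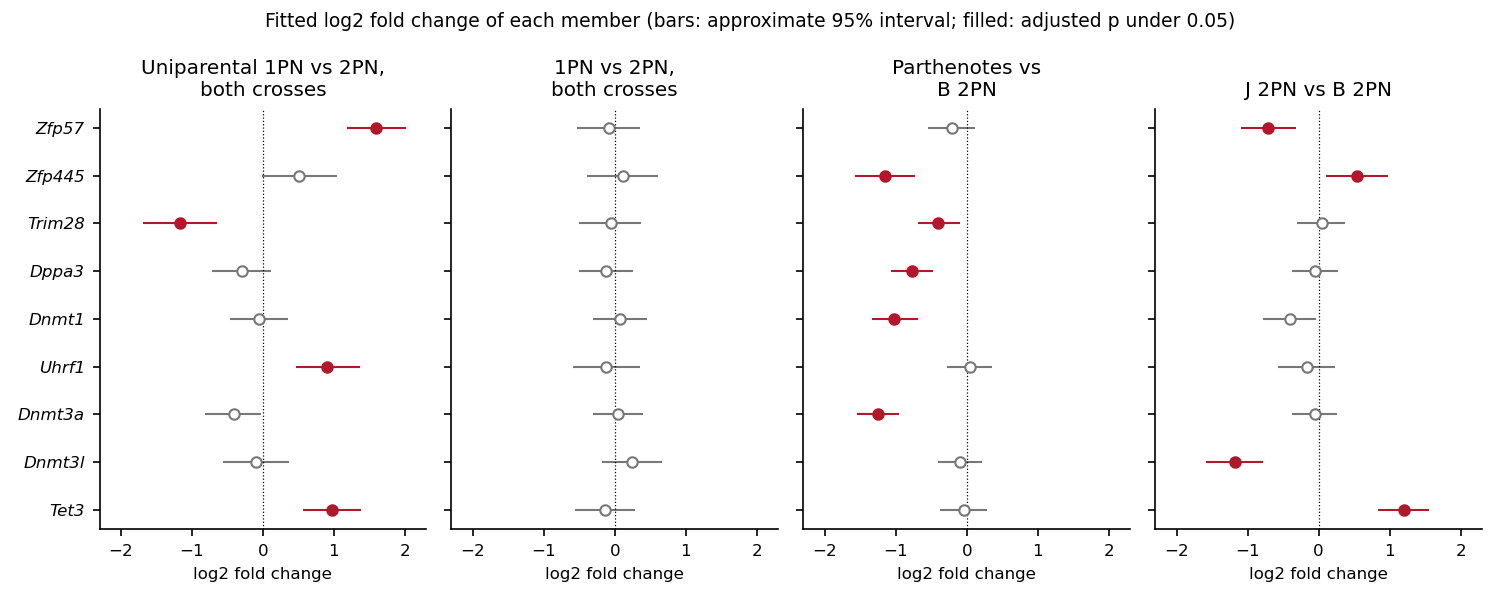
Fitted log2 fold change of each member in 4 comparisons, with an approximate 95% interval (1.96 SE); filled points passed an adjusted p under 0.05. Zfp57, Tet3 and Uhrf1 lie to the right and Trim28 to the left for uniparental 1PN embryos, no point is filled for 1PN against 2PN embryos, and Dnmt3a, Dnmt1, Zfp445, Dppa3 and Trim28 lie to the left for parthenotes.

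The C57BL/6 parthenotes, which arose by activation, were also set against B cross 2PN embryos. Here 5 members were lower (Dnmt3a, Dnmt1, Zfp445, Dppa3 and Trim28) and 0 higher, where 21.8% of all genes were lower and 29.1% higher. The median log2 fold change was -0.40 over the members and 0.18 over all genes tested, or 0.38 over all genes with DESeq2's size factors, which moved the calls of all genes from 7106 higher and 5306 lower to 8915 and 4210. Parthenotes and 2PN embryos differ in strain and in origin, activation or fertilization, as well as in parentage, and these cannot be told apart.

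Dnmt3a fell furthest, from 18 to 107 CPM in 2PN embryos (median 65.4) to 11 to 75.3 in parthenotes (median 30.1). Of the 31 parthenotes 30 were below the 2PN median, and the log2 fold change was -1.25 ± 0.15 (adjusted p = 1.32e-12). Dnmt1 ran from 2.39 to 59.3 CPM in parthenotes (median 21.4) against a 2PN median of 41.3, with 29 of 31 below it. Its log2 fold change was -1.02 ± 0.17 (adjusted p = 8.98e-08). Transcripts of the enzymes that set and copy methylation were thus both lower. Those of Dnmt3l, the cofactor, had medians of 53.4 CPM in parthenotes and 50.4 CPM in 2PN embryos, and those of Uhrf1 19.9 and 15.7 CPM.

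Zfp445 ran from 1.76 to 56.2 CPM in parthenotes (median 20.5), with 29 of 31 below the 2PN median of 39. Its log2 fold change was -1.15 ± 0.21 (adjusted p = 2.26e-06). Dppa3 ran from 1209 to 4287 CPM (median 2521), with 26 of 31 below the 2PN median of 3178, and fell by 0.77 ± 0.15 on the log2 scale (adjusted p = 4.67e-06). Trim28, at 59.0 to 173 CPM (median 123), fell by 0.40 ± 0.15 (adjusted p = 0.0219), but the call was lost with DESeq2 (-0.20, adjusted p = 0.287), with its size factors (-0.20, adjusted p = 0.238) and without a filter on low counts (-0.38, adjusted p = 0.0829).

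Zfp57 did not pass in parthenotes, with 41.2 to 265 CPM, the same median of 96.5 as in 2PN embryos and a log2 fold change of -0.21 ± 0.17 (adjusted p = 0.297). Tet3 had medians of 40.1 and 35 CPM, with 1 parthenote at 270 CPM above every 2PN embryo. Cumulus and granulosa markers summed to a median of 32.8 CPM in parthenotes (6.15 to 94.1) and 7.86 CPM in B cross 2PN embryos (0.281 to 36.7), with Fshr at 0 in both, and their part in these results was not tested.

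The uniparental 1PN embryos and the parthenotes were compared directly in the B cross. Zfp57 was higher in the uniparental 1PN embryos by 1.78 ± 0.25 on the log2 scale (adjusted p = 3.53e-07), with all 8 above the parthenote median and 5 above every parthenote. Zfp445 (1.07 ± 0.33, adjusted p = 0.0372), Tet3 (0.82 ± 0.26, adjusted p = 0.0471) and Dnmt1 (0.80 ± 0.26, adjusted p = 0.0487) were also called higher. Those 3 calls were lost with DESeq2 (adjusted p from 0.0839 to 0.110) and with limma voom (adjusted p from 0.0512 to 0.167). Without B cross embryo 10, in the fit that left out J cross embryos 1 and 2 too, Tet3 (0.72, adjusted p = 0.175) and Dnmt1 (0.65, adjusted p = 0.203) lost theirs. In all, 4 members were higher and 0 lower, where 3.41% of all genes were higher and 1.57% lower. This comparison shares its uniparental embryos with the one against 2PN embryos and its parthenotes with the one above. The groups also differ in origin, as the 1PN embryos arose spontaneously and the parthenotes by activation, and its part was not tested.

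The reciprocal 2PN embryos differed for 4 members, 2 in each direction. Of all genes, 18.8% were higher and 19.2% lower in the J cross. Tet3 was higher in J cross 2PN embryos, by 1.2 ± 0.18 on the log2 scale (adjusted p = 2.62e-08). Of these, 18 of 21 were above the B cross 2PN median of 35 CPM and 7 above every B cross 2PN embryo. In 1PN embryos Tet3 ran from 39.3 to 53.4 CPM in the J cross, inside the 25.8 to 69.2 CPM of the B cross. In uniparental embryos it ran from 126 to 438 CPM in the J cross and from 27.7 to 146 CPM in the B cross. Dnmt3l was lower in J cross 2PN embryos, at 3.12 to 55.5 CPM (median 17.4) against 8.76 to 91.6 CPM (median 50.4), with 20 of 21 below the B cross median. Its log2 fold change was -1.18 ± 0.20 (adjusted p = 5.87e-07). The same low levels were seen in the J cross 1PN embryos, with 15.8, 11.6 and 32.5 CPM, and in its uniparental embryos, with 8.23, 25.3, 2.61 and 31.9 CPM.

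Zfp57 was lower in J cross 2PN embryos, by -0.71 ± 0.20 on the log2 scale (adjusted p = 0.00266), with 17 of 21 below the B cross median. Zfp445 was called higher by 0.54 ± 0.23 (adjusted p = 0.0490), a call lost without a filter on low counts (adjusted p = 0.0744) and without embryos of under 1000000 counts (adjusted p = 0.0570). Dnmt1 was at a median of 27.4 against 41.3 CPM and did not pass (-0.41 ± 0.19, adjusted p = 0.0774). Mean depth was 2333066 ± 945526 counts (SD, n = 21) in J cross and 3817841 ± 648426 (SD, n = 43) in B cross 2PN embryos, and its part in these differences was not tested.

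The amount of oocyte-derived RNA varied between embryos of 1 group, and some members varied with it. Within the 43 B cross 2PN embryos, Zfp57 rose with the summed oocyte-derived list (Pearson's r = 0.77, Spearman's rho = 0.73, both with a permutation p of 1e-05, the smallest 100000 resamples can give, and an adjusted p of 0.000180 over 36 relations). Tet3 did so too (r = 0.78, rho = 0.82, permutation p of 1e-05, adjusted p = 0.000180 for each). Without the 2 embryos farthest from the median of the list, r was 0.72 for Zfp57 and 0.81 for Tet3. None of the other 7 members passed with this list in those embryos by the same test.

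Within the 31 parthenotes the relation held for Tet3 (r = 0.64, rho = 0.52, permutation adjusted p of 0.00144 and 0.0178, r without the 2 farthest 0.50) and was also seen for Uhrf1 (r = 0.58, rho = 0.59, permutation adjusted p of 0.00418 and 0.00972, r without the 2 farthest 0.43). For Zfp57 it did not pass there (r = 0.32, rho = 0.31, permutation adjusted p of 0.186 and 0.287). Dnmt3a fell as the embryonic 2-cell list rose, in 2PN embryos (r = -0.45, rho = -0.45, permutation adjusted p of 0.0148 and 0.0178, r without the 2 farthest -0.35) and in parthenotes (r = -0.63, rho = -0.53, permutation adjusted p of 0.00225 and 0.0178, r without the 2 farthest -0.43).

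The same oocyte-derived list was at a median of 7145 CPM (4379 to 17010) in B cross 2PN embryos, 12372 CPM (9099 to 40039) in the uniparental embryos of that cross and 8513 CPM (5249 to 15733) in parthenotes. It thus moved with Zfp57 and Tet3 in the uniparental comparison, and its part in those differences was not tested. With J cross embryos 1 and 2 and B cross embryo 10 left out, the log2 fold changes over both crosses were 1.29 for Zfp57 (adjusted p = 1.77e-05), 0.64 for Tet3 (adjusted p = 0.0312) and -0.79 for Trim28 (adjusted p = 0.00480).

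**Figure D3:**
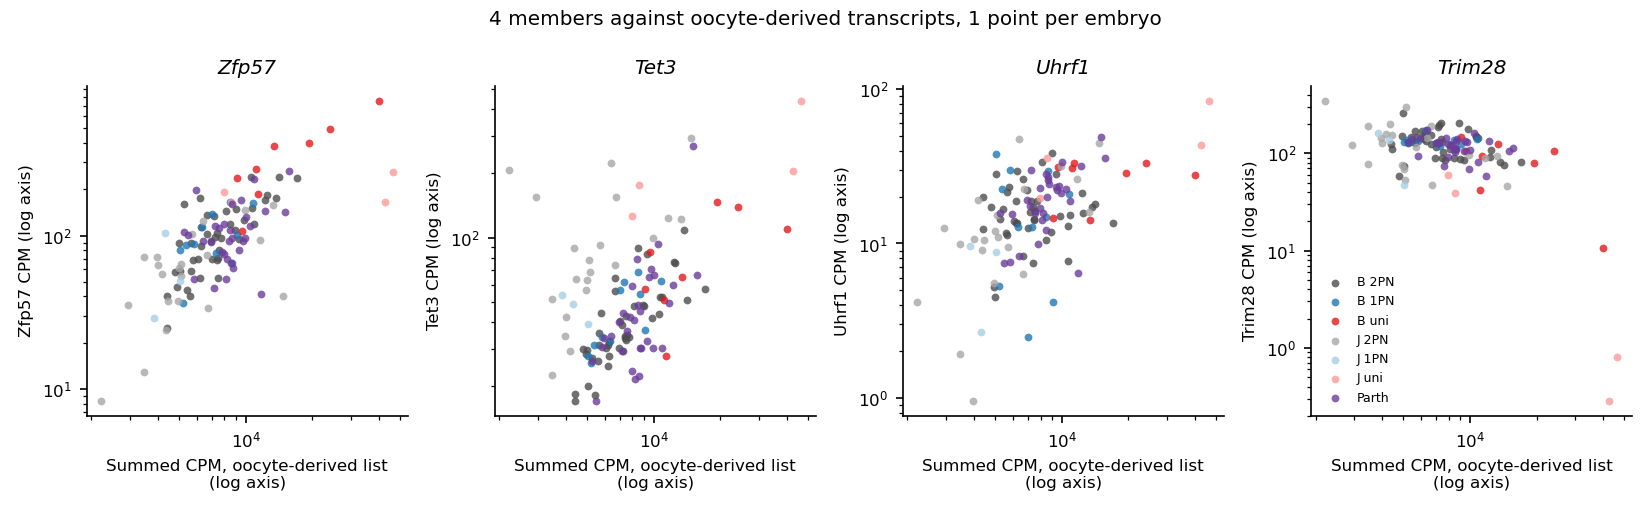
CPM of 4 members against the summed CPM of 23 oocyte-derived transcripts, both on log axes, 1 point per embryo, coloured by group. Zfp57 and Tet3 rise with the list within B cross 2PN embryos, and Trim28 is lowest, at 10.6 CPM or less, in 3 uniparental embryos with 40039 to 46464 CPM of the list.

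Over all kept embryos, the genes whose levels ran most like Zfp57 were Ooep (Spearman's rho 0.71), itself on the oocyte-derived list, Nlrp9a (0.68) and Nr2e1 (0.67), among 7742 protein-coding genes. Within the 43 B cross 2PN embryos these had rho of 0.75, 0.76 and 0.69. Tet3 ran most like Peak1 (0.71), Rnf220 (0.68) and Tiam1 (0.68), and Uhrf1 like Rdx (0.59), Strn (0.58) and Ktn1 (0.57). Trim28 ran most like Slc12a2 (0.58), Rps20 (0.57) and Map1lc3a (0.56), and Dppa3 like Hmgb2 (0.66), Cks2 (0.65) and Npm1 (0.63). For Dnmt1 they were Pip4k2c (0.62) and Rbm45 (0.56), for Dnmt3a Pigs (0.64), Rffl (0.62) and Cog4 (0.60). For Dnmt3l they were Psme2 (0.67), Pecam1 (0.65) and Jam2 (0.62), and for Zfp445 Wnk1 (0.65), Csnk1g3 (0.62) and Ptbp1 (0.51). These are descriptions across embryos that differ in group and depth.

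Other genes of the pathway were read from lists drawn up by function. Of 20 genes listed for KRAB corepression and heterochromatin, 10 were lower and 2 higher in uniparental 1PN than in 2PN embryos. Of all genes, 18.3% were lower and 26.6% higher. The median log2 fold change was -0.51 against 0.22 over all genes. Within the B cross it was -0.40 against 0.19, with 9 lower and 2 higher. There 13.2% of all genes were lower and 18.5% higher. Within the J cross it was -0.64, the same as over all genes, with 7 lower and 2 higher. Of all genes in that cross, 20.1% were lower and 14.7% higher. Without J cross uniparental embryos 1 and 2 and B cross uniparental embryo 10, 8 were lower and 2 higher, where 11.6% of all genes were lower and 16% higher. Cbx3, which encodes the heterochromatin protein HP1 gamma, fell by 1.44 ± 0.26 on the log2 scale (adjusted p = 4.87e-06), and Cbx1, which encodes HP1 beta, rose by 1.57 ± 0.22 (adjusted p = 1.50e-08). Atf7ip, a partner of the histone methyltransferase SETDB1, fell by 0.81 ± 0.17 (adjusted p = 5.96e-05), and Trim33, a relative of Trim28, fell by 0.90 ± 0.20 (adjusted p = 0.000102). In parthenotes 14 of the 20 were lower and 2 higher, where 21.8% of all genes were lower and 29.1% higher, with Cbx3 at a median of 15.3 CPM against 40.9 in B cross 2PN embryos.

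Of 10 readers of methylated CpG, 6 were higher and 0 lower in uniparental 1PN embryos, beside the same shares of all genes, with a median log2 fold change of 1.04. In the B cross the median was 0.91 against 0.19 over all genes, with 5 higher, where 18.5% of all genes were higher. In the J cross the median was 0.08 against -0.64, with 3 higher, where 14.7% of all genes were higher. Without the 3 embryos that stood apart 5 were higher and 0 lower, where 16% of all genes were higher and 11.6% lower. Mbd2 rose by 1.89 ± 0.27 (adjusted p = 2.60e-08), or by 1.25 without those embryos (adjusted p = 0.00212). Zbtb33, which encodes Kaiso, rose by 1.87 ± 0.35 (adjusted p = 5.89e-06) and Mbd1 by 1.08 ± 0.28 (adjusted p = 0.00113). Mbd1 rose by 1.26 ± 0.31 in the B cross (adjusted p = 0.00114) but did not pass in the J cross (0.03 ± 0.63). Zbtb4 rose by 2.65 ± 0.46 over both crosses (adjusted p = 9.21e-07) but not within each: it rose by 3.67 ± 0.51 in the B cross (adjusted p = 2.18e-09), was at a median of 0 CPM in both J cross groups and did not pass there (-4.17 ± 2.02, adjusted p = 0.0987). The crosses differed in this effect by -7.84 ± 1.67 (adjusted p = 0.000268). The J cross side of this rests on at most 0.653 CPM in uniparental embryos and 48.8 CPM in 2PN embryos. In parthenotes 4 readers were higher and 0 lower, where 29.1% of all genes were higher and 21.8% lower. These transcripts were rare, with medians of 3.34 CPM for Mbd2 and 0 for Zbtb4 in B cross 2PN embryos, and 9.34 and 6.07 CPM in the uniparental embryos of that cross. Of 13 methyltransferase partners and other methyltransferases, 1 was higher (Nsd1, a histone H3 lysine 36 methyltransferase, by 0.61 ± 0.17, adjusted p = 0.00215) and 3 were lower. Of all genes, 26.6% were higher and 18.3% lower. Without the 3 embryos Nsd1 did not pass (0.23, adjusted p = 0.355). The lower ones were Setd2, another H3 lysine 36 methyltransferase (-0.73 ± 0.17, adjusted p = 0.000306), Usp7, a deubiquitinase that binds DNMT1 and UHRF1 (-0.56 ± 0.16, adjusted p = 0.00265), and Pclaf, a PCNA-binding factor (-1.49 ± 0.52, adjusted p = 0.0133), whose call was lost without the 3 embryos (-1.25, adjusted p = 0.0767).

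**Figure D4:**
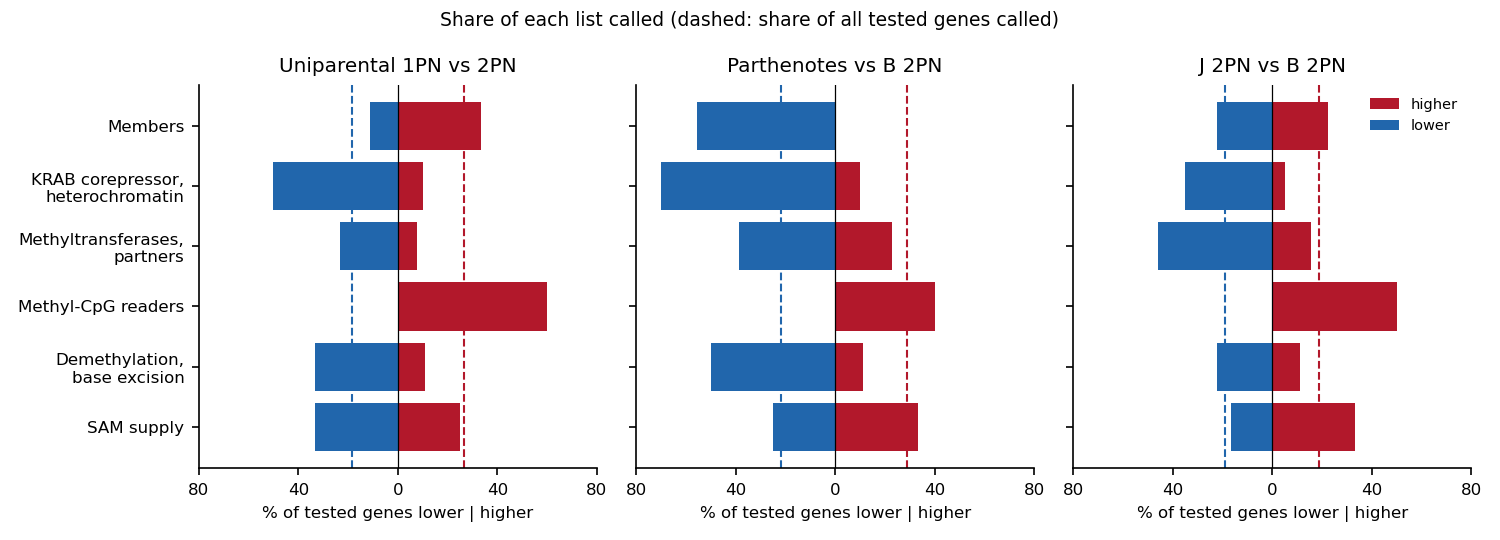
Share of the tested genes of each list called higher (red, to the right) or lower (blue, to the left) in 3 comparisons, in percent; dashed lines give the share of all tested genes called. Against 2PN embryos, uniparental 1PN embryos have 10 of 20 KRAB corepressor and heterochromatin genes lower and 6 of 10 methyl-CpG readers higher. Of all tested genes, 18.3% are lower and 26.6% higher there.

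Some counts may mix gene copies. RefSeq lists pseudogenes of Dppa3, Dnmt3a and Dnmt3l, and values that were not whole numbers, as fractional counting of shared reads gives, were found for Dppa3 in 55 libraries, for Uhrf1 in 46 and for Dnmt3l in 26. Other genes are annotated over Zfp445, Trim28, Dnmt1, Dnmt3a, Dnmt3l and Tet3, and the sources used here do not say whether counting used strand. Gene counts also join isoforms, such as the oocyte and somatic forms of DNMT1.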

How the data were processed

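The deposited table holds estimated counts per gene, 1 column for each single 2-cell embryo, from SMART-Seq v4 and Nextera XT libraries per the labels' protocols. The submitters' processing notes name, per the labels, build GRCm38, HISAT2 2.0.5 and featureCounts 2.0.0. The sources used here do not give the annotation release, the use of strand or how shared reads were counted. Of the deposited estimated counts 12.6% were not whole, and these were rounded first. Ensembl identifiers were matched to symbols for 43266 of 43421 genes, and coordinates and promoters came from RefSeq on GRCm38.p6. The 9 members and all lists were chosen with earlier results of these data known. Every member is named in the text, together with up to 4 genes of each pathway list with the smallest p for uniparental 1PN against 2PN embryos, and for each member the 3 genes of at least 10 CPM mean level with the highest Spearman's rho over the kept embryos. Some genes that this rule names are not reported here.

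CPM is the rounded count per 1000000 counts of an embryo. The tests ran over all genes in edgeR 4.0.16 under R 4.3.3, with TMM factors, filterByExpr by group and the quasi-likelihood F test, with Benjamini-Hochberg adjustment over all genes tested and a threshold of 0.05. Embryo type and cross were additive terms for the 6 hybrid groups in comparisons over both crosses, and the other comparisons used the means of 7 groups. The SE of an edgeR log2 fold change was derived from the test, as its absolute value over the square root of F. A 95% interval is 1.96 such SEs on either side, so both are approximate. Alternatives used DESeq2 1.42.0, its size factors in edgeR, limma 3.58.1 voom, no low-count filter, the older edgeR method, fewer samples and the embryo number as a block. The embryo numbers in the titles did not pair the libraries. Relations within a group used log2(CPM + 1) and 2-sided permutation tests with 100000 resamples. No libraries of a group matched within sampling noise (lowest chi-square per gene 11.0). The fit was also run on simulated data, and the outcome of that run is not given here. The rest was computed in Python 3.11.15 (scipy 1.17.1, pandas 2.3.3, numpy 2.4.6) and plotted with matplotlib 3.10.9. The libraries carry no stated molecular identifiers, so counts may include PCR copies and depth speaks to counting error only.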

Additional observations from a re-analysis of the deposited data

Results flagged for a closer look

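In the groups of 4 to 10 embryos, 18 combinations of member and group were checked for an embryo far from the others by Dixon's criterion, which chance meets in about 1 in 20 groups, and 3 met it. Dppa3 was at 6393 CPM in uniparental embryo 10 of the B cross, whose other 7 embryos ran from 2683 to 4341 CPM. Dnmt1 was at 78.8 CPM and Dnmt3a at 149 CPM in uniparental embryo 1 of the J cross, the library with 46464 CPM of oocyte-derived transcripts.

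The uniparental difference of Trim28 differed between the crosses by -2.0 on the log2 scale, by a test of the difference itself, and this rests on J cross embryos 1 and 2.

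Of the 4 libraries that entered no comparison, 3 held members above every 2PN embryo of their cross. The library labelled dead held 75.5 CPM of Uhrf1 and 153 CPM of Tet3, with 0 counts of Trim28 in 3547652 and 36135 CPM of oocyte-derived transcripts. The 1PN library of embryo 6, labelled low quality, held 438 CPM of Zfp57, 40.3 CPM of Uhrf1 and 143 CPM of Tet3, with 14.2 CPM of Trim28 and 40205 CPM of oocyte-derived transcripts. The J cross 2PN library labelled low quality showed Dnmt1 at 214 CPM, which is 1 count of 4680.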

How the results depend on the processing

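Of 81 values, 9 members in 9 comparisons, 31 were called. None of the 31 changed sign in the 17 alternatives run, each where it applies, and 14 kept their call in all of them. Alternatives that left out J cross uniparental embryos 1 and 2 together, alone or with B cross uniparental embryo 10, and the older edgeR method were chosen after seeing the data. Among the values printed that were not called, Dnmt1 in uniparental 1PN against 2PN embryos turned to 0.15 with DESeq2, 0.16 with its size factors and 0.01 with the embryo block, and lay between -0.25 and 0.02 when J cross uniparental embryos were left out in turn. Dnmt3l turned there to 0.10 with DESeq2 and 0.09 with its size factors, and lay between -0.13 and 0.02 when J cross uniparental embryos were left out in turn. Zfp57 in parthenotes turned to 0.00 with DESeq2. The causes were not tested.

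Counts of members moved as follows. For uniparental 1PN against 2PN embryos over both crosses, 2 members in place of 1 were lower with limma voom and without the doubtful embryos (either set), and 1 to 2 when J cross embryos were left out in turn. Against 1PN embryos 2 were lower and 2 in place of 3 higher without either set, and 1 to 2 lower in turn. In the B cross 0 were lower with DESeq2 and 1 with its size factors, without a filter, or without embryo 10. In the J cross 2 were lower without a filter or without libraries under 1000000 counts, while 0 were higher without either set and 0 lower without embryos 1 and 2. For the difference between crosses, 1 was higher with DESeq2's size factors and 2 with limma voom, 0 were lower without either set, and in turn 0 to 1 were lower and 0 to 2 higher. For B cross uniparental embryos against parthenotes 1 was higher with DESeq2, limma voom or the older method, and 2 without embryo 10. For the reciprocal 2PN embryos 1 was higher without a filter, with the older method or without libraries under 1000000 counts.

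With the embryo number as a replicate block, 7 of the 31 calls were lost: 1 member was higher against 1PN embryos (Zfp57), 1 higher and 1 lower in the B cross, 1 higher for the difference between crosses and 1 higher against parthenotes. Tet3 in 1PN against 2PN embryos turned to 0.02. Same-numbered embryos of 2 groups correlated between -0.40 and 0.37 in their deviations from the group means, so the number is not taken as a pairing.

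Calls over all genes moved by over 1.5 times in some alternatives, between 3626 and 7300 higher (6053 in the main setting) for uniparental 1PN against 2PN embryos, 2086 and 5739 higher (4700) and 2292 and 4117 lower (3526) against 1PN embryos, 1934 and 6117 higher (4500) and 1921 and 3301 lower (3213) in the B cross, 706 and 4610 higher (3582) and 856 and 5202 lower (4900) in the J cross, 342 and 1295 higher (998) and 228 and 3656 lower (2876) for the difference between crosses, 115 and 1235 higher (831) and 103 and 687 lower (383) against parthenotes, and 0 and 90 higher (23) and 0 and 21 lower (0) for 1PN against 2PN embryos. Depth limits Uhrf1 most, and the J cross groups of 3 and 4 embryos limit every value in that cross.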

Other observations

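Of 18 genes of active demethylation and base excision repair tested, 6 were lower and 2 higher in uniparental 1PN than in 2PN embryos, where 18.3% of all genes were lower and 26.6% higher. Their median log2 fold change was -0.28 against 0.22 over all genes. Without J cross uniparental embryos 1 and 2 and B cross uniparental embryo 10, 5 of 19 tested were lower and 2 higher. Of all genes, 11.6% were then lower and 16% higher. Lig3, the DNA ligase of base excision repair, fell by 1.41 ± 0.26 on the log2 scale (adjusted p = 5.96e-06), and Neil3, a DNA glycosylase, rose by 1.38 ± 0.34 (adjusted p = 0.000513). Apobec1, which encodes a cytidine deaminase, lies on chromosome 6 at 122577792 to 122603024 (GRCm38.p6), 23 kb from Dppa3. It was at a median of 14 CPM in B cross 2PN embryos (0 to 60.2), and no higher than 3.18 CPM in any uniparental embryo of that cross, 1.36 CPM in any parthenote and 2.07 CPM in any J cross 2PN embryo.

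In the supply of S-adenosylmethionine, the methyl donor, 3 of 12 genes were higher and 4 lower, beside the same shares of all genes. Without those 3 embryos 2 were higher and 4 lower, where 16% of all genes were higher and 11.6% lower. Mat2a, which makes the donor, had a median of 596 CPM in B cross 2PN embryos, 309 CPM in its uniparental embryos and 217 CPM in parthenotes, with log2 fold changes of -1.29 ± 0.30 (adjusted p = 0.000278) for uniparental embryos over both crosses and -1.72 ± 0.21 (adjusted p = 3.18e-12) for parthenotes. Of the serine hydroxymethyltransferases, the cytosolic Shmt1 fell by 1.45 ± 0.31 (adjusted p = 8.37e-05) and the mitochondrial Shmt2 rose by 1.39 ± 0.31 (adjusted p = 0.000156), a call lost without those embryos (0.83, adjusted p = 0.0675). Mtr, methionine synthase, rose by 1.06 ± 0.24 (adjusted p = 0.000238).

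Among the members themselves, the pair that ran most alike over the 43 B cross 2PN embryos was Zfp57 and Tet3 (Spearman's rho 0.63), and the pair that ran most opposite was Dppa3 and Dnmt3l (-0.55). In the 21 J cross 2PN embryos the highest pair was Zfp445 and Dnmt1 (0.77), and in the 31 parthenotes Uhrf1 and Tet3 (0.49). These are descriptions, and embryos of 1 group share a strain and a protocol but differ in depth.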
